A study of Mus musculus with 2 samples.

Results

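Solute carriers that move amino acids, sugars and monocarboxylates across membranes were described in fluorescence-sorted stem cell populations of mouse skin. The members were the probes named for the families Slc1a, Slc2a, Slc3a, Slc6a, Slc7a, Slc16a, Slc36a, Slc38a and Slc43a, namely 149 of 41174 probes, which stood for 87 of 27732 genes or unnamed transcripts. One of them, Slc7a6os, lies on the opposite strand of Slc7a6 and is no transporter, so that 86 genes were transporters by name. The study compared RNA of Lgr6-high cells, sorted for bright green fluorescent protein from dorsal skin of Lgr6-EGFP-ires-CreERT2 mice, with RNA of Lgr5-high cells, sorted the same way from Lgr5-EGFP-ires-CreERT2 mice. Both lines carry the reporter and an inducible Cre recombinase knocked into a gene for an R-spondin receptor, and each sort pooled 3 mice. The strain background, age and sex of the mice are not given in the sources used here. The pools were hybridised on 2 two-colour arrays of opposite dye orientation. Lgr6-high RNA carried Cy5 on array 1 and Cy3 on array 2, and Lgr5-high RNA the other dye.

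Keratinocytes take up glucose through facilitated carriers of the Slc2a family and release lactate with protons through carriers of the Slc16a family, several of which need the chaperones Bsg or Emb to reach the membrane. Amino acids enter by sodium-coupled carriers of the Slc1a, Slc6a and Slc38a families. The Slc7a light chains exchange or import amino acids, and many of them work only when bound to a heavy chain of the Slc3a family. Some Slc36a carriers are proton-coupled, and Slc43a1 and Slc43a2 move large neutral amino acids, while Slc43a3 is known as a carrier of purine nucleobases.

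The ratios below are log2 of Lgr6-high over Lgr5-high, given as the mean ± SD of the 2 arrays, so that positive values mean more signal in Lgr6-high cells. No label states whether the arrays held the same or separate RNA pools, so that the SD covers hybridisation and dye and may or may not cover separate sorts, and the pair was counted as 1 replicate. With 1 replicate the populations cannot be tested, and a gene was called by size. A call needed a 2-fold difference, that is a mean log2 ratio of 1 or more in size, with 0.5 or more in that direction on each of the arrays. A gene counted as measured where 1 of its probes was marked by the scanner software as well above background for at least 1 population on both arrays. An offset of 50 intensity units, added after background correction, makes the ratios of dim probes smaller than their true size.

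Across the arrays, 6195 genes were measured, with a median ratio of -0.05, and the ratios of the arrays correlated across these genes with a Pearson r of 0.749. The Cy5 channel saw less than the Cy3 channel, with 15.3% and 16.2% of probe spots well above background in Cy5 on arrays 1 and 2, against 31.6% and 33.3% in Cy3. Keratinocyte markers were present in both populations, with all 10 listed genes measured, of which 5 were called higher in Lgr6-high cells. Of the markers of the bulge, the stem cell niche of the follicle, 5 of 6 measured were higher in Lgr5-high cells, and of the upper follicle markers 5 of 7 were higher in Lgr6-high cells, while Sostdc1 was higher in Lgr5-high cells (-2.15 ± 0.52) and Lrig1 had -0.01 ± 0.10. Among these 5 bulge markers was Lgr5 itself (-1.83 ± 0.12), the gene whose reporter the Lgr5-high cells were sorted by, so that it is no separate support.

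Of the 87 member genes 23 were measured, or 26.4%, against 22.4% of all genes on the array. Another 21 were above background in a population on 1 array at most, and 43 were not well above background anywhere. Both populations were above background on both arrays for 10 of the measured genes. For 5 (Slc1a1, Slc2a5, Slc2a6, Slc6a4 and Slc6a14) the Lgr6-high signal was above background on both arrays and the Lgr5-high signal on neither, while no member showed the opposite pattern. The share of all genes with either pattern is not given here, so that this count is nothing particular to the members. On both arrays 18 members were above background in Lgr6-high cells and 15 in Lgr5-high cells, against 5184 and 5527 of all 27712 genes. Detection on 1 array went with the dye. Of the member probes above background on only 1 array, all 30 in Lgr6-high cells and all 21 in Lgr5-high cells were seen on the array where that population carried Cy3.

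**Figure D1:**
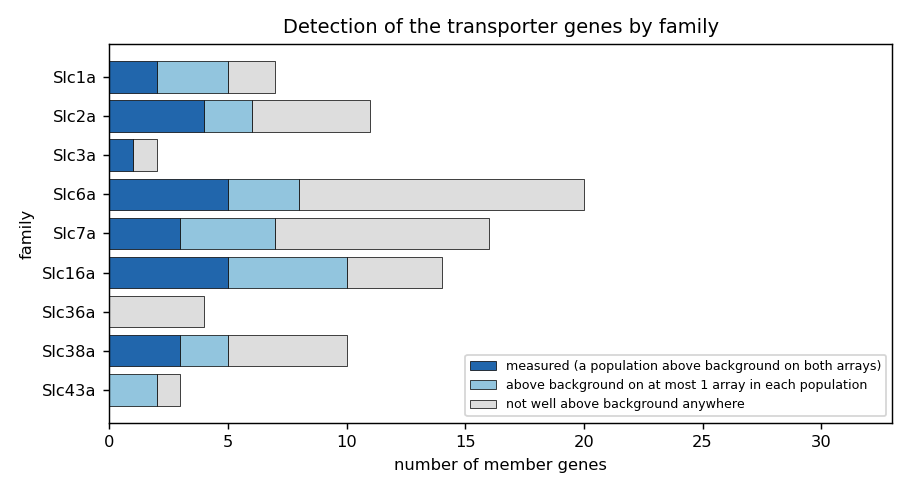
Number of member genes per transporter family, split by detection. Slc2a and Slc16a had 4 of 11 and 5 of 14 genes measured, whereas none of the 4 Slc36a and 3 Slc43a genes was.

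Detection is given by family, beside the 22.4% of all genes on the array that were measured. The families hold 2 to 20 genes, so that differences between their shares are not read as a result. Measured genes numbered 2 of 7 in Slc1a, 4 of 11 in Slc2a, 1 of 2 in Slc3a, 5 of 20 in Slc6a, 3 of 16 in Slc7a, 5 of 14 in Slc16a and 3 of 10 in Slc38a. Genes with no signal well above background in either population numbered 2 in Slc1a, 5 in Slc2a, 1 in Slc3a, 12 in Slc6a, 9 in Slc7a, 4 in Slc16a, 4 in Slc36a, 5 in Slc38a and 1 in Slc43a. Among them were Slc7a11, the cystine importer (4 probes), Slc38a1 (5 probes) and Slc2a3, the high-affinity glucose carrier of neurons (3 probes, of which the files place 1 on chromosome 17 and the other two on chromosome 6). The leucine carrier Slc7a5 and the arginine carrier Slc7a1 were above background in each population on 1 array only, the one with Cy3, with ratios of -0.08 and, for its brighter probe, -0.19. Slc2a12, another hexose carrier, was seen above background in Lgr6-high RNA on array 2 alone and had ratios of 0.65 and 0.99 on arrays 1 and 2. It therefore did not enter the comparison. The same detection was found for 7 further genes, Slc16a8, Slc16a9, Slc16a10, Slc1a3, Slc1a4, Slc6a2 and Slc7a4, whereas Slc16a6, Slc1a6 and Slc7a7 were seen in Lgr5-high RNA on array 1 alone. Another 8, Slc16a13, Slc2a8, Slc38a7, Slc38a9, Slc43a1, Slc43a3, Slc6a16 and Slc6a17, were seen like Slc7a5 in each population on the array where it carried Cy3.

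Of the 23 measured members 5 were called higher in Lgr6-high cells, or 21.7%, against 7.28% of all measured genes. Of these 5, Slc1a1, Slc16a3, Slc2a5 and Slc2a6 passed the filter through Lgr6-high cells alone. The share is therefore no support for a difference between the members and other genes. Where both populations had to be above background on both arrays, 1 of 10 members was called higher in Lgr6-high cells, against 7.66% of all such genes. Another 2, Slc7a8 and Slc16a7, were called higher in Lgr5-high cells, or 8.7%, against 4.76%. Both passed the filter through Lgr5-high cells alone, so that this share is no support either. With both populations above background on both arrays, 0 of 10 members were called higher in Lgr5-high cells, against 4.91% of all such genes. In either direction 12% of all measured genes were called. The members' median ratio was 0.34, with 0.30 on array 1 and 0.52 on array 2. Positive means were found for 16 members and negative ones for 7, while 46.4% of all measured genes had a positive mean. Among the 16 were the 5 genes with Lgr5-high signal above background on neither array and 3 with it on 1 array. These passed the filter through Lgr6-high cells alone. Another 5, all with negative means, passed it through Lgr5-high cells alone. The count is therefore no support for a lean of the members. Where both populations had to be above background on both arrays, the median was 0.31 over 10 members, against -0.03 over all such genes. The 7 called genes were Slc1a1, Slc16a3, Slc2a6, Slc2a5 and Slc2a1 on the Lgr6-high side and Slc7a8 and Slc16a7 on the Lgr5-high side. A call requires the same sign on both arrays, so that this holds for the called genes by definition. With them included, 20 of the 23 measured members had the same sign, against 72.5% of all measured genes. All probe positions below are on build mm9 as the files give them.

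**Figure D2:**
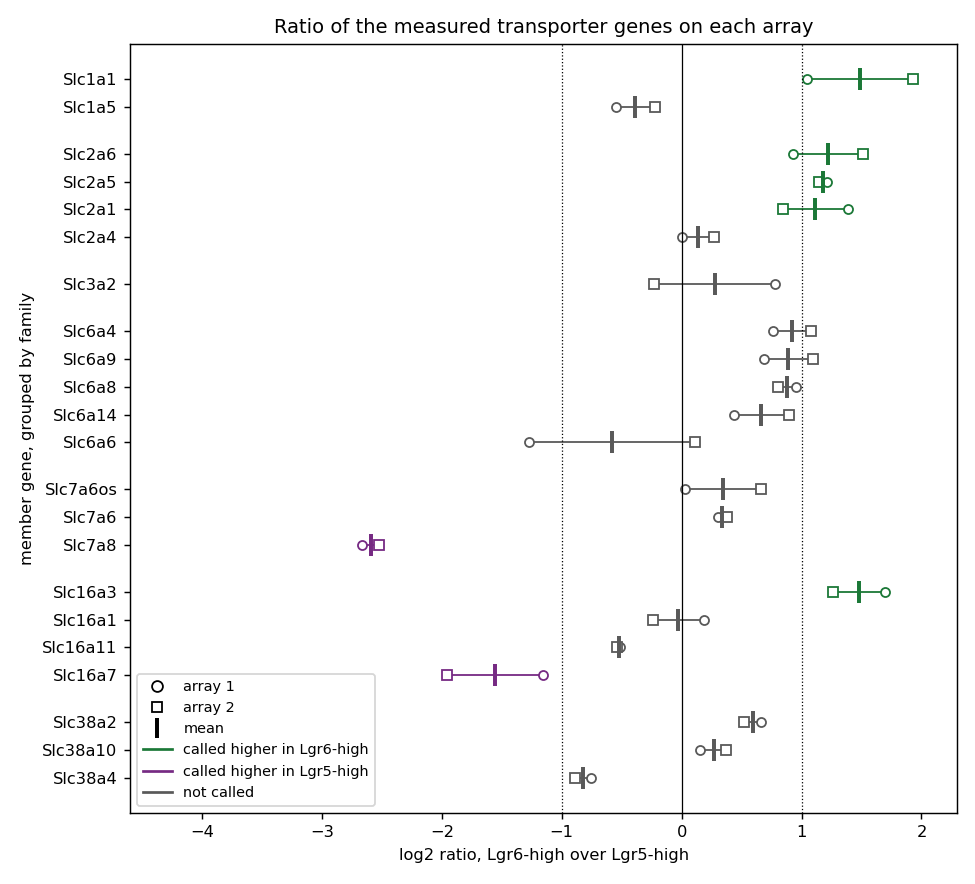
Log2 ratio of Lgr6-high over Lgr5-high for 22 of the 23 measured members on array 1 (circles) and array 2 (squares), with their mean (bars) and dotted lines at 2-fold. Slc7a8 stands at -2.59, and Slc2a1, Slc2a5 and Slc2a6 lie between 1.12 and 1.22.

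Of the 4 measured Slc2a genes, a family of glucose and fructose carriers, 3 were called higher in Lgr6-high cells, against 7.28% of all measured genes. Slc2a5 and Slc2a6 passed the filter through Lgr6-high cells alone, so that this count is no support for a difference of the family. Slc2a1 encodes the basal glucose transporter of most dividing cells, and its probe lies on chromosome 4, 118809864 to 118809923. Its normalised log2 intensity was 10.67 and 10.19 in Lgr6-high cells on arrays 1 and 2, against 9.28 and 9.35 in Lgr5-high cells. All 4 signals were well above background. The ratio was 1.12 ± 0.39, or 2.17-fold. On array 2 alone it was 0.84, under the 2-fold minimum.

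Slc2a5 encodes a fructose transporter and was measured by a probe on chromosome 4, 149517775 to 149517834. Its log2 intensity was 7.42 and 7.96 in Lgr6-high cells, against 6.21 and 6.81 in Lgr5-high cells, where it was at background on both arrays. It was at least 2.27-fold higher in Lgr6-high cells, with ratios of 1.21 and 1.15 on arrays 1 and 2. For such a bound, the brighter population's mean level was divided by a floor in the dim one, namely the lowest level of any probe well above background, or the probe's own level where that was greater.

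Slc2a6, a sugar carrier found mainly on internal membranes, has its probe on chromosome 2, 26877148 to 26877207. Its log2 intensity was 7.12 and 8.05 in Lgr6-high cells, against 6.19 and 6.53 in Lgr5-high cells, again at background on both arrays. It was at least 2.33-fold higher in Lgr6-high cells. The ratio was 0.93 on array 1, under the 2-fold minimum, and 1.51 on array 2. The insulin-responsive carrier Slc2a4 was above background in both populations on both arrays and had a ratio of 0.14 ± 0.18.

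Monocarboxylate carriers were called in both directions. Slc16a3 encodes the carrier that exports lactate from strongly glycolytic cells, and its probe lies on chromosome 11, 120820023 to 120820082. Its log2 intensity was 8.24 and 8.42 in Lgr6-high cells, against 6.54 and 7.16 in Lgr5-high cells, where array 2 was at background. The ratio was 1.48 ± 0.31, or 2.78-fold. Slc16a7, which has a high affinity for pyruvate and lactate, was lower in Lgr6-high cells. The log2 intensity of its probe on chromosome 10, 124664784 to 124664843, was 7.02 and 5.96 in Lgr6-high cells, where array 1 was at background, against 8.18 and 7.91 in Lgr5-high cells. Its ratio was -1.56 ± 0.56, and a further probe of the gene, at 124663576 to 124663635, was not well above background anywhere.

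None of the other measured Slc16a genes was called. The widespread lactate and pyruvate carrier Slc16a1 had ratios of 0.18 and -0.24 on arrays 1 and 2. Slc16a11 had -0.53 ± 0.02. The family median was -0.03.

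Promoter sequences are shown for the called glucose and lactate carriers that share a motif and for Slc7a8, the called amino acid carrier that is lower in Lgr6-high cells. They come from RefSeq on build GRCm38.p6 and run 5′ to 3′ on the gene's strand, from 250 bases before the start site to 50 after it. Capitals mark ACGTG or its reverse complement CACGT, the core letters of a hypoxia response element, which also lie within CACGTG. The Slc2a1 promoter is chr4:119108495-119108794 on the plus strand, that of Slc16a3 chr11:120948817-120949116 on the plus strand and that of Slc7a8 chr14:54781837-54782136 on the minus strand.
Slc2a1: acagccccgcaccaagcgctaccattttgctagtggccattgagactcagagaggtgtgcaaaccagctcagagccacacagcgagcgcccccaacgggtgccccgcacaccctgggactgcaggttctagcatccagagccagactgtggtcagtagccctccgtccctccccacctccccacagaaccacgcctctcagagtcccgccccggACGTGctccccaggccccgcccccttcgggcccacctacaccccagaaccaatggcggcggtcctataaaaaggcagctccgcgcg
Slc16a3: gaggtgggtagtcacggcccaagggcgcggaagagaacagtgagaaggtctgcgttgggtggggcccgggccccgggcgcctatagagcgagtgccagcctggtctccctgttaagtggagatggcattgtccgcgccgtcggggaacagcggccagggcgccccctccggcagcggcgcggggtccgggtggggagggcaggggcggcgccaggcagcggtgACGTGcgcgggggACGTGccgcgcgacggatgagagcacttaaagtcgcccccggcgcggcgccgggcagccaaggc
Slc7a8: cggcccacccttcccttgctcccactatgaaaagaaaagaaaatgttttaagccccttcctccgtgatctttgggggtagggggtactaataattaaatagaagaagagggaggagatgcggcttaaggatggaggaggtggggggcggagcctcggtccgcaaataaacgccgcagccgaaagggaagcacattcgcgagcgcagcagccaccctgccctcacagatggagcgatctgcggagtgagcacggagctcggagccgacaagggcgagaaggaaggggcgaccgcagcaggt
The Slc2a1 promoter holds 1 match and that of Slc16a3 holds 2, at bases 215, 224 and 237 counted from the 5′ end of each sequence. The motif was found in 2 of the 6 called members with a promoter in the table, in 7 of 22 promoters (31.8%) of the 17 measured members matched and in 19.6% of all 32851 promoters of this length. The letters TGATGCAA (or TTGCATCA, an amino acid response element core) were in none of the 22 and in 0.895% of all promoters. Those of an AP-1 site, TGACTCA (or TGAGTCA), and of an E-box, CACGTG, were in 1 of 22 each, against 5.2% and 7.15% of all.

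Slc7a8, a light chain that exchanges neutral amino acids, was lower in Lgr6-high cells. Its difference was the largest of the 23 measured members after loess with background subtraction, but not by the scanner software's ratios. Its probe lies on chromosome 14, 55341137 to 55341196. The log2 intensity was 7.58 and 6.50 in Lgr6-high cells on arrays 1 and 2, against 10.25 and 9.02 in Lgr5-high cells. The Lgr6-high signal was above background on array 2 alone, where that population carried Cy3. The ratio was -2.59 ± 0.10, or 6.03-fold higher in Lgr5-high cells, with -2.66 and -2.52 on the arrays. The scanner software's own ratios were -4.45 and -3.89 with a mean of -4.17, against means of 4.71 for Slc1a1 and -4.42 for Slc16a7.

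The other measured Slc7a genes were not called. Slc7a6, which exchanges cationic for neutral amino acids, had 0.34 ± 0.055, and its opposite-strand neighbour Slc7a6os 0.34 ± 0.45. Slc3a2, the CD98 heavy chain that carries Slc7a light chains to the membrane, was above background in both populations on both arrays. Its log2 intensity was 11.19 and 10.30 in Lgr6-high cells, against 10.41 and 10.53 in Lgr5-high cells. The populations overlapped, and the ratios of 0.78 and -0.23 on arrays 1 and 2 had opposite signs.

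**Figure D3:**
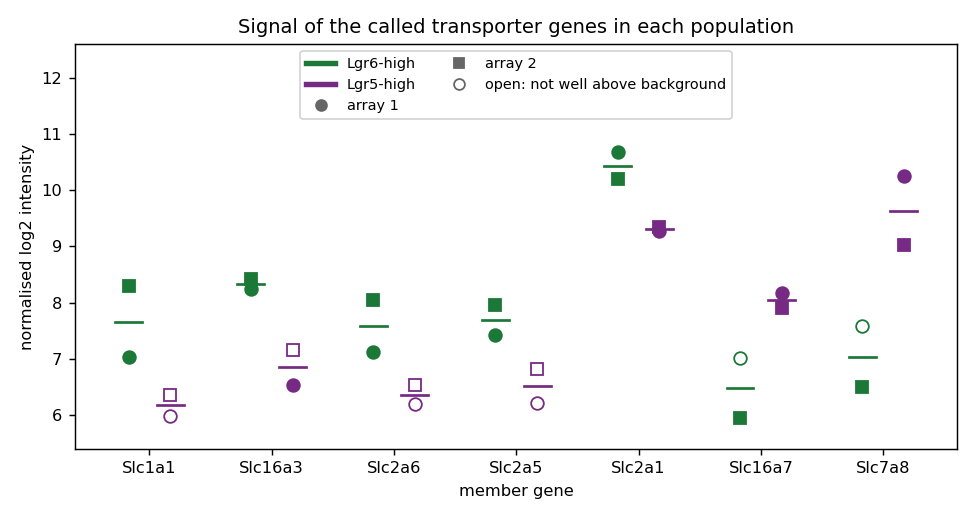
Normalised log2 intensity of the 7 called genes in Lgr6-high (left, green) and Lgr5-high cells (right, purple) on array 1 (circles) and array 2 (squares), with means as lines and open symbols for signals not well above background. The genes were chosen by the size of these differences, so that the gap between the populations within a gene is no added support. The Lgr5-high signals of Slc1a1, Slc2a5 and Slc2a6 are open on both arrays. Heights of different genes come from different probes and cannot be set against each other.

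Slc1a1, a sodium-coupled carrier of glutamate, aspartate and cysteine, was higher in Lgr6-high cells. Its brighter probe, on chromosome 19 at 28987016 to 28987075, had a log2 intensity of 7.03 and 8.29 in Lgr6-high cells, against 5.98 and 6.36 in Lgr5-high cells. Neither array showed it well above background in Lgr5-high cells, so that by this probe the mean signal was at least 2.70-fold higher in Lgr6-high cells. A further passing probe, at 28988332 to 28988391, gave the same direction with a ratio of 0.50, which is not a call. Its bound was only 1.41-fold, so that the larger bound does not hold for every probe of the gene. The glutamine carrier Slc1a5 had -0.39 ± 0.23, with Lgr6-high cells above background on 1 array.

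None of the 5 measured Slc6a genes was called, and 4 had positive ratios on both arrays. Of these 4, Slc6a4 and Slc6a14 passed the filter through Lgr6-high cells alone, so that the count is no support for a lean of the family. The serotonin carrier Slc6a4 was at least 1.75-fold higher in Lgr6-high cells, with ratios of 0.76 and 1.08 on arrays 1 and 2. Slc6a14, which takes up neutral and cationic amino acids, was at least 1.54-fold higher. The Lgr5-high cells were at background on both arrays for these genes. The glycine carrier Slc6a9 (0.89 ± 0.29) and the creatine carrier Slc6a8 (0.88 ± 0.10) were above background in both populations. The taurine carrier Slc6a6 had -1.27 on array 1 and 0.12 on array 2, and its SD of 0.98 was the largest of the 23 measured members.

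In the Slc38a family 3 genes were measured and none was called. The sodium-coupled carrier Slc38a2 had 0.59 ± 0.10 by its brightest probe, while its other passing probes had means between -0.07 and 0.30. Slc38a10 had 0.27 ± 0.15. Slc38a4 was lower in Lgr6-high cells without reaching 2-fold (-0.83 ± 0.09), with a log2 intensity of 6.67 and 6.11 in Lgr6-high cells, against 7.43 and 7.005 in Lgr5-high cells. Its Lgr6-high signal was above background on 1 array.

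Of the chaperones and partners listed, Emb had -0.89 ± 0.49 and was not called, and Bsg was above background in each population on 1 array only. Among 18 measured genes of glycolysis and lactate metabolism, 2 were called higher in Lgr6-high cells and 1 in Lgr5-high cells. For comparison, 7.28% and 4.76% of all measured genes were called in these directions, and their median ratio was -0.045. The median of the 18 genes was 0.10. The called ones were the glycolysis activator Pfkfb3 (1.21 ± 0.28), the hexokinase Hk2 (1.05 ± 0.08) and the lactate dehydrogenase subunit Ldhb (-1.37 ± 0.37). On array 1 alone Hk2 missed the 2-fold minimum (0.99). Of 14 measured genes of the amino acid response, only the stress sensor Sesn2 was called (2.80 ± 0.39), and their median was 0.42. The regulator Atf4 had 0.88 ± 0.28. Of 6 measured genes of glutamine, glutamate and branched-chain metabolism, the glutamine synthetase Glul was called (1.06 ± 0.29), though not on array 1 alone (0.85). The median of the 6 genes was 0.70. These lists are small, so that neither their counts nor their medians are read as a difference from other genes.

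Markers of other cells moved with the same comparison. Of 8 fibroblast markers 7 were measured and 5 were higher in Lgr5-high cells, their summed linear intensity being 1106 and 676.6 in Lgr6-high cells on arrays 1 and 2, against 4036 and 2516 in Lgr5-high cells, with Pdgfra at background throughout. Of 7 suprabasal markers 5 were measured and all of these were higher in Lgr6-high cells, with sums of 23450 and 18400 in Lgr6-high cells, against 3824 and 4145 in Lgr5-high cells, and with Ivl and Flg at background. Of 9 endothelial and mural markers 4 were measured, of which Lgr5-high cells had more of 3, with sums of 1220 and 1173 in Lgr6-high cells, against 2906 and 2450 in Lgr5-high cells, while Pecam1, Cdh5, Kdr, Rgs5 and Pdgfrb were at background. Both measured red cell markers and the 1 measured melanocyte marker were higher in Lgr5-high cells, and the 3 measured Schwann cell markers in Lgr6-high cells. No leukocyte, muscle or adipocyte marker was measured. The part of these cells in the transporter ratios was not tested, and in such bulk samples fewer cells of a type cannot be told apart from less RNA per cell.

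The calls depended on how background was treated. Without background subtraction the called genes kept their signs but only Slc7a8 remained called, at -1.95, as it did when outlier spots marked by the scanner entered the background fit, at -1.62. With the scanner software's ratios 10 members were called higher in Lgr6-high cells and 5 in Lgr5-high cells, against 15.5% of all genes in each direction. Limma, with an adjusted p under 0.05 and the same 2-fold minimum, called the same 7 members. Those p-values rest on the spread between 2 arrays, which may be technical.

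**Figure D4:**
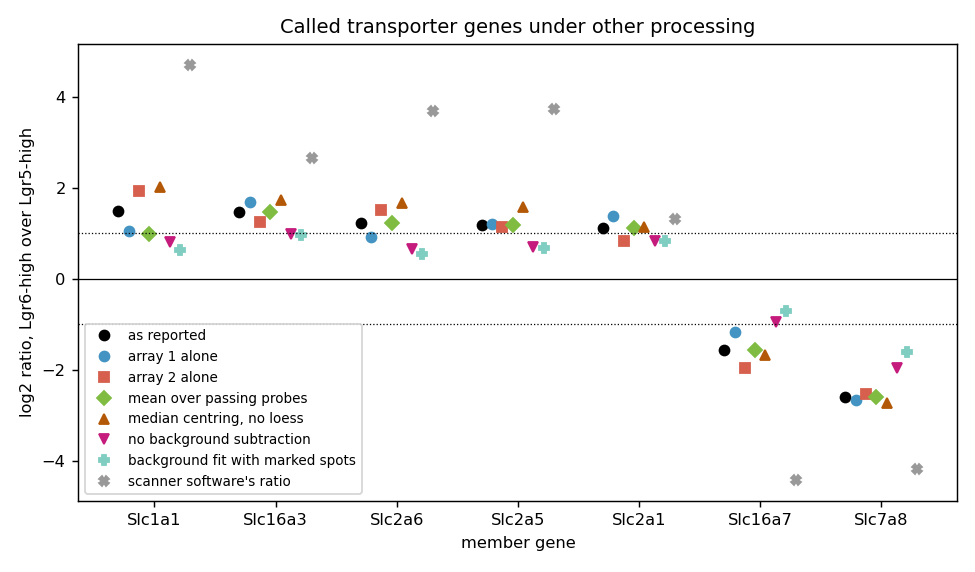
Log2 ratio of Lgr6-high over Lgr5-high of the 7 called genes under 8 ways of processing, with dotted lines at 2-fold. The signs do not change, and without background subtraction only Slc7a8 stays beyond 2-fold, at -1.95.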

How the data were processed

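The deposited scanner tables hold, per the file headers, Agilent Feature Extraction 10.5.1.1 intensities of each spot and its local background (the submitters' processing notes name version 9.5.3). They also hold the software's log10 ratio of Cy5 over Cy3 after background subtraction and dye normalisation. The p-value of each ratio comes from the software's error model, per the file headers, and was not used. The deposited value table of the authors holds the same log10 ratios, with array 2 turned, so that its direction is Lgr6-high over Lgr5-high. Each of its columns has a median of 0. Per the labels' protocols, 150 ng of total RNA was amplified linearly.

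Mean signals were corrected with normexp (offset 50, fitted without spots marked as outliers) and normalised by loess in limma 3.58.1 (R 4.3.3), with control spots at weight 0. Marked spots were left out, spots of a probe were averaged, and array 2 was turned by its dyes. The brightest passing probe by mean log2 intensity over both populations stood for a gene. Levels per population were scaled between arrays (Aquantile). Of 43379 probe spots, 139 and 204 were marked on arrays 1 and 2 and none was saturated. The number of arrays limits the precision.

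Members, gene lists and settings were chosen with earlier results of these data known. Every called member is named, other measured members may be, and from other lists called genes plus Bsg, Emb and Atf4. Further probes (5) that a RefSeq table places in these families under older names were outside the rule. Alternatives covered background, normalisation, filter, probe choice, call and single arrays. The values of 1 measured member are not reported here.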

Additional observations from a re-analysis of the deposited data

How the results depend on the processing

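The counts of members called higher in Lgr6-high cells and in Lgr5-high cells (5 and 2) were 0 and 1 without background subtraction and 0 and 1 with marked outlier spots in the background fit. They were 10 and 5 with the scanner software's log ratios and with the authors' value table, which hold the same values, and 1 and 0 where both populations had to be above background on both arrays, which left 10 members (the 1 call was Slc2a1) and called 7.66% and 4.91% of all genes. At a 1.5-fold minimum they were 9 and 3, against 12.2% and 11.4% of all genes. From single arrays the first count ranged from 4 to 6 and the second from 2 to 3, against 7.01% to 9.86% and 5.08% to 7.6% of all genes. Over all genes the counts of 451 and 295 became 212 and 204 without background subtraction, 124 and 151 with marked spots in the background fit, 134 and 57 with median centring and 958 and 958 with the scanner's ratios. The members' median ratio of 0.34 was 0.15 with marked spots in the background fit, 0.64 with median centring, 0.83 with the scanner's ratios and the authors' value table, and -0.024 without the filter on dim probes, which adds probes at background. From single arrays it ranged from 0.30 to 0.52. The cause of the other shifts was not tested. Slc2a1 lost its call on array 2 alone (0.84) and with median centring, where array 1 had -0.77 and array 2 3.04. Slc2a6 lost it on array 1 alone (0.93) and with median centring, where array 1 had 0.50. Slc1a1 lost it when its probes were averaged (0.99). No called member changed sign on average under the alternatives run. Under all of them that kept its probe, Slc7a8 was called, between -4.17 and -1.62. Of the listed genes, Hk2, Pfkfb3 and Glul lost their calls without background subtraction (0.76, 0.80 and 0.66) and, with Ldhb, with marked spots in the background fit (0.68, 0.64, 0.54 and -0.87) and with median centring. Sesn2 lost its call with median centring. Each ratio is already the difference of both populations within an array, so that no further pairing was fitted. For the 43 members not well above background anywhere, signal over background was too low to show a difference.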
